A study of Mus musculus with 9 samples.

Results

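The core circadian clock genes of mouse liver were followed across lean, obese and TUDCA-treated obese mice. The list holds 10 genes, namely Arntl, Clock, Npas2, Per1, Per2, Per3, Cry1, Nr1d1, Nr1d2 and Dbp, out of 19938 genes with a value on the array. A gene was read only from probe sets whose annotation gives its symbol and no other. Each of 9 genes was measured by 1 probe set in this way, and Npas2 is unnamed here.

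N-control mice were lean C57BL/6J littermates given tap water by gavage. OB-control mice were leptin-deficient ob/ob mice (B6.V-Lepob/J), also on tap water, and OB-TUDCA mice were ob/ob mice that received tauroursodeoxycholic acid (TUDCA), a taurine-conjugated bile acid, at 500 mg/kg 2 times a day for 3 weeks by gavage in the morning and evening. All mice were male, 6 weeks old at the start and on normal chow, and their livers were taken after an 8 h fast. Each group has 3 arrays, drawn from the 6 mice per group that the methods give, and ob/ob mice lack leptin in the whole body from birth. The hour at which each mouse was killed is not given in the sources used here, so a different level of a clock gene and a different hour or phase of the clock cannot be told apart in these data.

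The circadian clock is a loop of transcription that runs in nearly every cell and takes about a day. ARNTL (also called BMAL1) pairs with CLOCK, or with its relative NPAS2, on E-box sequences and turns on the Per and Cry genes, whose proteins return to the nucleus and shut that pair down. The same pair turns on Nr1d1 and Nr1d2, which encode the nuclear receptors REV-ERB alpha and beta, and these repress Arntl through RORE sequences. Dbp encodes a factor that carries the rhythm to other liver genes through D-box sequences, and in liver the timing of meals is known to set the clock. Arntl, Clock and Npas2 are known to peak near the time of day when Dbp and the Per genes are low, and along the day Nr1d1 peaks first among the genes they turn on, then Nr1d2, Dbp and Per3, then Per1 and Per2, and Cry1 last.

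The sequences before the start sites show where these elements lie in the genes that the results turn on. RefSeq promoter windows (assembly GRCm38.p6, 250 bases before to 50 after a start) were found for 9 of the 10 genes, 13 windows in all, and Per2 was not matched. The motifs searched on both strands were the E-box CACGTG, the E'-box CACGTT, the D-box TTATGTAA or TTACGTAA, the RORE TAGGTCA or TGGGTCA and the CRE TGACGTCA. The 250 bases before the start, 5′ to 3′ on the strand of the gene, are given for Per1 (chr11:69098699-69098948, plus strand, E-box in capitals), Per3 (chr4:151044666-151044915, minus strand, both D-boxes in capitals), Cry1 (chr10:85185055-85185304, minus strand, E'-box on the reverse strand and then E-box in capitals) and Nr1d1 (chr11:98775378-98775627, minus strand, E'-box on the reverse strand in capitals). For the downstream start of Arntl only 30 bases after the start are given (chr7:113207530-113207559, plus strand, RORE in capitals).
Per1: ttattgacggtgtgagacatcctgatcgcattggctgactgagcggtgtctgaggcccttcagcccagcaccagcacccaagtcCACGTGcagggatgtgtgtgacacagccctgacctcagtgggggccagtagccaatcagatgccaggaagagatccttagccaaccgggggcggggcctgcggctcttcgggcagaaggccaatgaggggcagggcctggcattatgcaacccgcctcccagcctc
Per3: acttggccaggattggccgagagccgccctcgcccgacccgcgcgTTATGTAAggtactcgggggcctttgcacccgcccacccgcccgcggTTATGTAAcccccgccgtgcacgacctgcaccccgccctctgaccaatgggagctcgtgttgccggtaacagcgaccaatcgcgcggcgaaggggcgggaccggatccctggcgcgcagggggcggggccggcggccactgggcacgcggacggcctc
Cry1: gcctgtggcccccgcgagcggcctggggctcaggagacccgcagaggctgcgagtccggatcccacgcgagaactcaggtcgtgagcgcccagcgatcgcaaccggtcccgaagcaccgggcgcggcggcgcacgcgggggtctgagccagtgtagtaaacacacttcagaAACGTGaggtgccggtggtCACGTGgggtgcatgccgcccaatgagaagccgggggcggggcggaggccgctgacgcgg
Nr1d1: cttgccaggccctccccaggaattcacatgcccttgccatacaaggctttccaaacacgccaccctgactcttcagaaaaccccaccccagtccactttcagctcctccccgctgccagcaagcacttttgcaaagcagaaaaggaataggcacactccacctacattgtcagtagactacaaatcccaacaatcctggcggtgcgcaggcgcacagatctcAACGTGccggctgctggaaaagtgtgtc
Arntl: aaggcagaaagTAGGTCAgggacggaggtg

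The E-box of Cry1 begins 60 bases before the start and its E'-box 79 bases before it, while the E'-box of Nr1d1 begins 28 bases before the start. The E-box of Per1 begins 166 bases before the start, and the D-boxes of Per3 begin 205 and 158 bases before it. Over all 32851 windows of the same length, 7.15% hold the E-box, 4.68% the E'-box, 1.06% the D-box, 6.45% the RORE and 1.79% the CRE, against 2, 2, 1, 1 and 0 of the 13 windows of clock genes. The windows of Clock, Npas2, Nr1d2 and Dbp, and those of the other Arntl and Per1 starts, hold none of these letters. A match describes the sequence and does not show that a factor binds there.

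The arrays carried liver RNA, since the mean of 9 hepatocyte markers lay between 12.37 and 12.65 on the log2 scale in all 9 arrays. N-control replicate 2 also carried RNA of the exocrine pancreas, with a mean of 20 acinar genes of 10.24 against 3.88 to 4.30 in the other arrays. None of the 9 clock genes had its highest or lowest value of all arrays in that replicate. Lep, the gene mutated in ob/ob mice, read 2.76 to 3.22 on the log2 scale, and since it is made in fat its level in liver checks no label. Nothing in the labels names a processing batch or says that the 3 arrays of a group came from separate cages or litters, so the tests measure the spread between these arrays.

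N-control replicate 3 stood apart from every other array in the clock genes. Its Arntl signal was 7.35, while the other 8 arrays lay between 5.25 and 6.19, and its Clock signal was 8.76 against 7.68 to 8.18. Its Dbp signal was 6.08 against 7.53 to 8.87, its Per3 signal 4.73 against 5.70 to 6.65, its Per2 signal 5.04 against 6.01 to 6.68 and its Per1 signal 6.29 against 6.65 to 7.30. Both positive factors were thus above all other arrays, and Dbp and the 3 Per genes below them. Only Cry1, Nr1d1 and Nr1d2 lay within the range of the others.

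**Figure D1:**
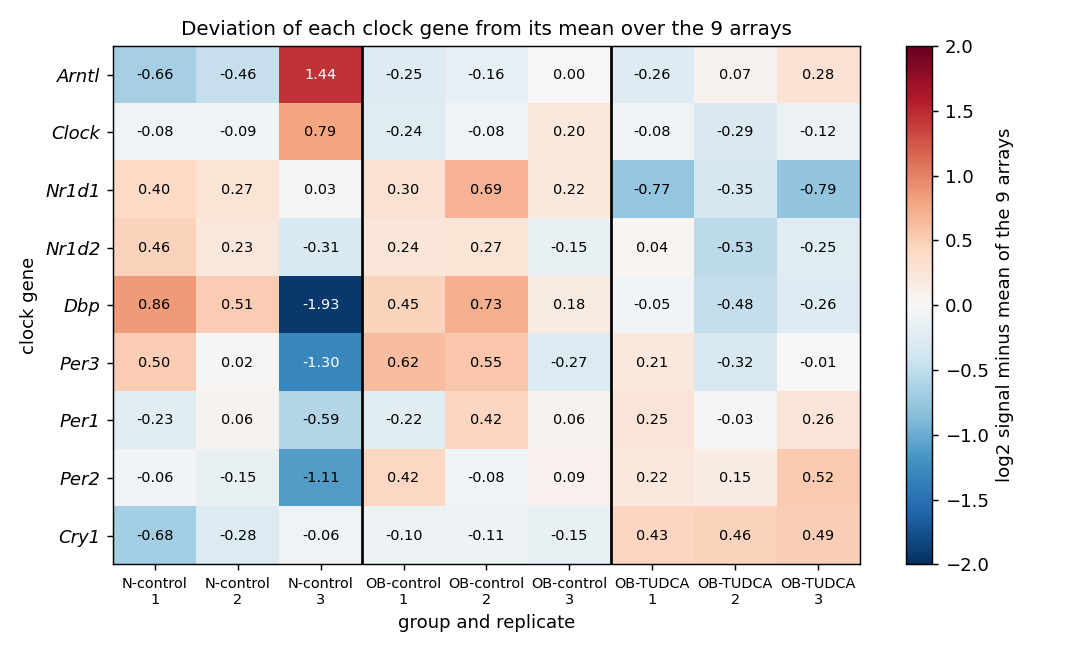
Log2 signal of each clock gene on each array minus the mean of that gene over the 9 arrays, with colours from blue (lower) to red (higher) and groups set off by black lines. N-control replicate 3 reads 1.44 for Arntl and -1.93 for Dbp, and the 3 OB-TUDCA arrays read -0.79 to -0.35 for Nr1d1 and 0.43 to 0.49 for Cry1.

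Compared with the mean of the other pair of lean mice, the array had a 4.001-fold higher Arntl and a 1.83-fold higher Clock signal. Dbp was 6.11-fold lower there, Per3 2.95-fold lower, Per2 2.01-fold lower and Per1 1.42-fold lower. When all 19938 genes were ranked by the gap between this array and the nearest of the other 8, Dbp stood at rank 6, Arntl at 8, Per3 at 12, Per2 at 13, Clock at 37 and Per1 at 205. Of the 30 genes with the widest gaps, 4 were members, 2 were other clock genes (Ciart and Bhlhe40) and 4 were liver outputs of the clock (Usp2, Wee1, Elovl3 and Rgs16). Regulators of clock proteins gave 0. Measured in these lists were 9 members, 10 other clock genes, 18 outputs and 14 regulators, out of 19938 genes. This array was singled out for its clock gene values, and the lists were chosen with earlier results of these data known. The counts are thus a description and no separate support. Over all genes the array was not unusual. It was outside the other arrays for 25.1% of genes, where the 9 arrays ranged from 17.2% to 26.3%, and 6 genes were at least 2-fold above and 5 at least 2-fold below all the others, where N-control replicate 2 had 37 and 1. The mean of the acinar genes was 3.88 in N-control replicate 3, the lowest of the 9 arrays. Because this 1 array decides the N-control mean of most clock genes, each comparison is given with it and without it. Without it the lean group holds only replicates 1 and 2, and replicate 2 carried pancreatic RNA.

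The first comparison, of treated with untreated ob/ob mice (OB-TUDCA against OB-control), asks what TUDCA changed in obese liver. Nr1d1 fell 2.06-fold, and Dbp and Cry1 were the other members whose arrays did not overlap between the groups. Values were 9.34, 9.73 and 9.26 for Nr1d1 in OB-control and 8.27, 8.69 and 8.25 in OB-TUDCA mice. All 3 treated arrays lay below all 6 arrays of the other groups. The log2 difference was -1.04, with a standard error of 0.16 and an adjusted p = 0.0441 by limma over all genes, which placed Nr1d1 past the threshold of 0.05. It was the only clock gene to pass, 1 of 9, where 0.301% of all genes passed. Without adjustment, Nr1d1 and Cry1 were below 0.05, 2 of 9, where 12% of all genes were. The call rests on the whole set of arrays. Leaving out any 1 of the 9 gave a difference between -1.18 and -0.90 and an adjusted p between 0.0626 and 0.149, so Nr1d1 missed the threshold each time. Nr1d1 and Dbp are also on the list of changed genes that the study drew from these same arrays, so their direction here is not an independent result.

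Cry1, a repressor of the ARNTL and CLOCK pair, was 6.15, 6.14 and 6.10 in OB-control and 6.68, 6.71 and 6.74 in OB-TUDCA mice. The treated arrays were above every array of both other groups, and the spread within each obese group was 0.03 (SD, n = 3). The difference was 0.58 (standard error 0.13, 1.49-fold), but the adjusted p of 0.108 missed the threshold, and it was 0.0805 without N-control replicate 3. Dbp was 8.46, 8.74 and 8.19 in OB-control and 7.96, 7.53 and 7.75 in OB-TUDCA mice. The groups did not overlap, with a difference of -0.71 (standard error 0.59, adjusted p = 0.693). The standard error is pooled over the groups and fell to 0.17 without N-control replicate 3, whose Dbp value lies far from the rest, and the adjusted p was then 0.145. In this comparison the arrays did not overlap for 3 of 9 clock genes and for 13.8% of all genes. Without N-control replicate 3 no clock gene passed, where 0.16% of all genes did.

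**Figure D2:**
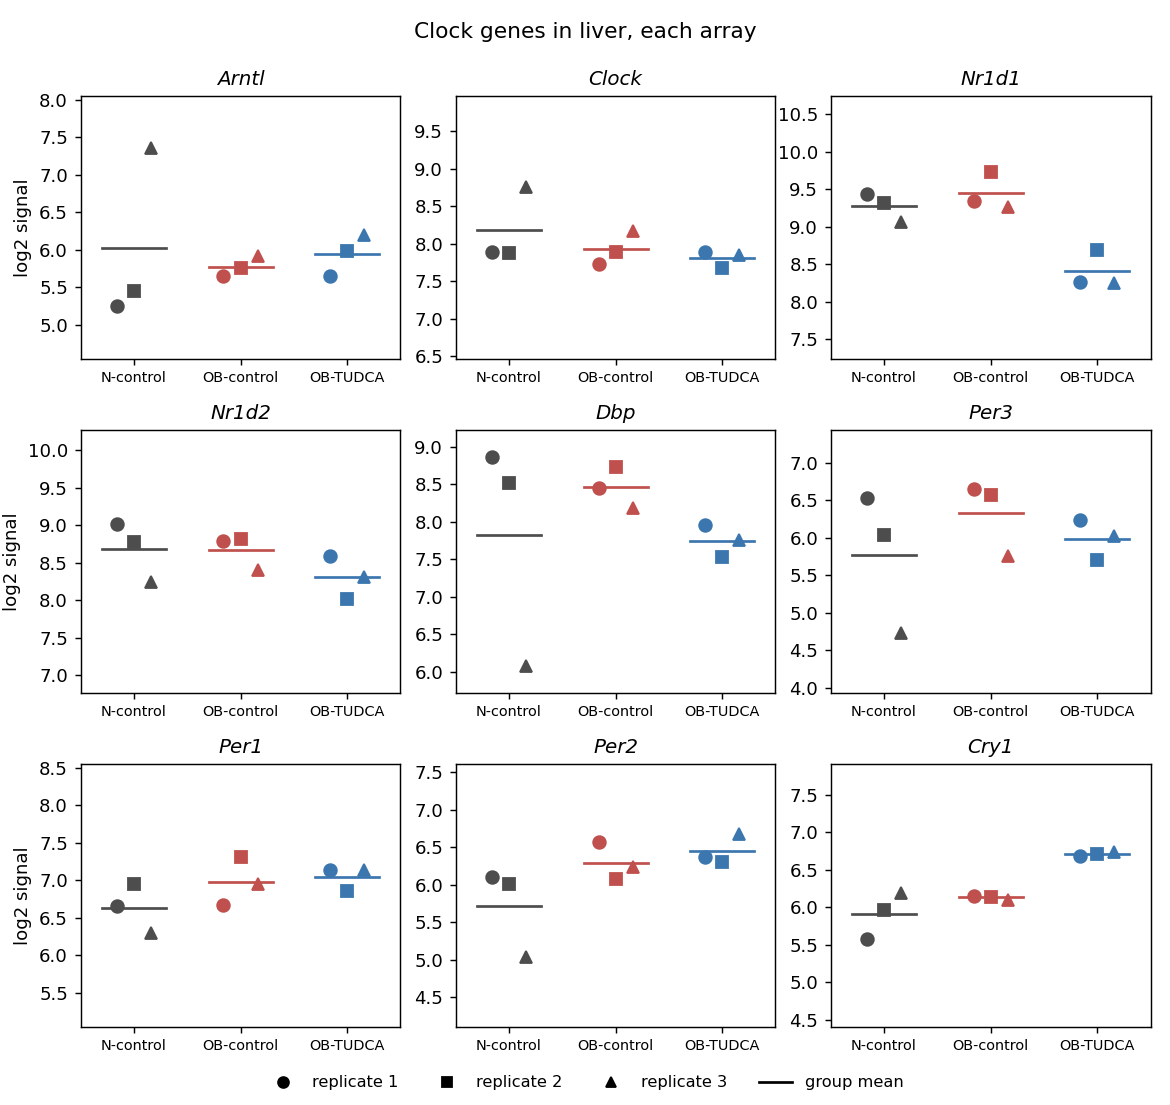
Log2 signal of the 9 measured clock genes on each array, by group, with a symbol for the replicate number and a line at the group mean; each panel has its own axis of the same span. Nr1d1 is lower and Cry1 higher on the 3 OB-TUDCA arrays than on the 6 others, and N-control replicate 3 lies away from the rest for Arntl, Clock, Dbp, Per2 and Per3.

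Nr1d2, the relative of Nr1d1, was 8.79, 8.82 and 8.40 in OB-control and 8.59, 8.02 and 8.30 in OB-TUDCA mice, so the groups overlapped. Its difference was -0.36 (standard error 0.21, adjusted p = 0.556). Per3 was 6.65, 6.58 and 5.76 in OB-control and 6.24, 5.70 and 6.02 in OB-TUDCA mice, a difference of -0.34 (standard error 0.42). Both genes overlapped between the groups. Per1 and Per2, which encode the main partners of the CRY proteins, differed by 0.07 and 0.16, with 95% intervals of -0.36 to 0.51 and -0.43 to 0.74. The positive factors differed as little, Arntl by 0.17 (95% interval -0.86 to 1.19) and Clock by -0.13 (-0.62 to 0.37).

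Set in the known order of their peaks, the log2 differences with TUDCA in ob/ob mice were -1.04 for Nr1d1, -0.36 for Nr1d2, -0.71 for Dbp, -0.34 for Per3, 0.07 for Per1, 0.16 for Per2 and 0.58 for Cry1. The means of Nr1d1, Nr1d2, Dbp and Per3 were lower, and those of Per1, Per2 and Cry1 were level or higher. Arntl and Clock, which are not in that row, differed by 0.17 and -0.13. This is a description of means, since only Nr1d1 passed the test. The order was neither planned nor tested. The median difference of the 9 clock genes was -0.13 and their median absolute difference 0.34, where all genes had medians of 0.01 and 0.10. By the methods' t-test, unadjusted, Cry1, Nr1d1 and Dbp were below 0.05, where 7.11% of all genes were. The SAM and fold limits of the methods, rebuilt, selected Nr1d1 and Dbp as lower, where they selected 1.34% of all genes.

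OB-control mice were then compared with N-control mice, which asks how untreated ob/ob mice differ from lean mice. No clock gene passed the threshold (adjusted p 0.414 to 0.996 by limma), and 0.948% of all genes passed. Without adjustment none was below 0.05, where 12.1% of all genes were. The arrays overlapped between the groups for each of the 9 genes, where they did not overlap for 15.3% of all genes. Nr1d1 was 9.27 ± 0.19 (SD, n = 3) in N-control and 9.44 ± 0.25 (SD, n = 3) in OB-control mice, and Nr1d2 was 8.68 ± 0.40 and 8.67 ± 0.24. These receptors showed the smallest differences, 0.17 and -0.01. Dbp was 8.87, 8.52 and 6.08 in N-control mice, so that its difference of 0.64 (standard error 0.59) came with a lean group that spanned the obese one. Per2 was 6.10, 6.01 and 5.04 in N-control mice against 6.57, 6.08 and 6.24, a difference of 0.58 (standard error 0.26).

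Several of these differences shrank or turned without N-control replicate 3. Per2 went from 0.58 to 0.24 and Per3 from 0.56 to 0.042, and neither passed. Arntl went from -0.24 to 0.42, Clock from -0.24 to 0.05 and Dbp from 0.64 to -0.23. Arntl then was 5.25 and 5.45 in lean mice against 5.66, 5.75 and 5.92 in OB-control mice, with an adjusted p of 0.339. Per1 went from 0.34 to 0.17, Nr1d1 from 0.17 to 0.069 and Nr1d2 from -0.0089 to -0.23, while Cry1 went from 0.22 to 0.36. No clock gene passed without that array, where 0.757% of all genes did.

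**Figure D3:**
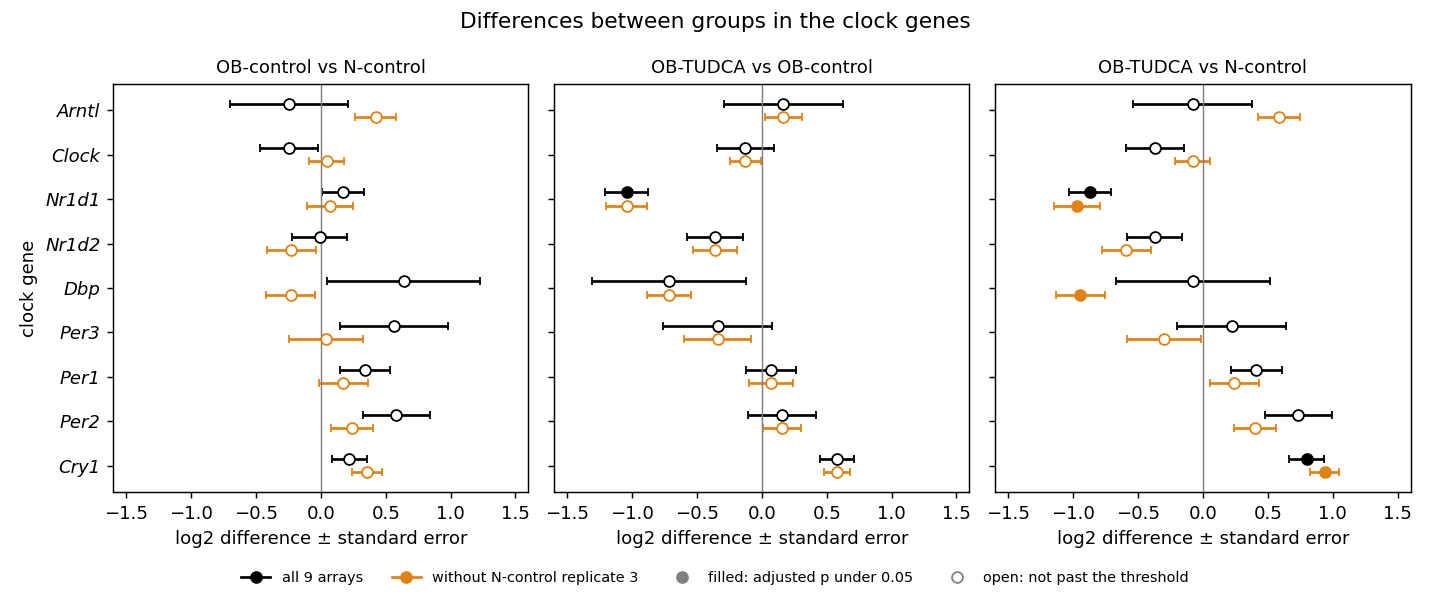
Log2 difference of each clock gene in the 3 comparisons, with bars of 1 standard error from the limma fit, in black for all 9 arrays and in orange without N-control replicate 3; filled points passed the adjusted p threshold of 0.05. Nr1d1 and Cry1 are past it between OB-TUDCA and N-control mice in both fits, and Dbp moves from -0.07 to -0.95 there when the array is left out.

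OB-TUDCA mice were last compared with N-control mice. This comparison shares arrays with both others and is no separate support for them. Cry1 rose 1.74-fold and Nr1d1 fell 1.83-fold, and the other 7 genes did not pass. Cry1 was 5.57, 5.97 and 6.19 in N-control mice, all below the 3 treated arrays, and the difference was 0.80 (standard error 0.13, adjusted p = 0.0155 by limma). Nr1d1 was 9.44, 9.31 and 9.07 in N-control mice, all above the treated arrays, and differed by -0.87 (standard error 0.16, adjusted p = 0.0234). The 2 calls compare with 3.24% of all genes. Without adjustment 3 of 9, with Per2 as the third, were below 0.05, where 18.5% of all genes were. With 1 array left out at a time, Cry1 passed in 6 of 9 fits (adjusted p 0.0108 to 0.0638) and Nr1d1 in 5 of 9 (0.0177 to 0.107). Cry1 missed when N-control replicate 2 or either of OB-TUDCA replicates 2 and 3 was left out, and Nr1d1 when replicate 1 or 2 of N-control or replicate 1 or 3 of OB-TUDCA was.

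Per2 was the third gene whose arrays did not overlap, at 6.37, 6.31 and 6.68 in OB-TUDCA mice. Its difference of 0.74 (standard error 0.26) had an adjusted p of 0.172, and without N-control replicate 3 it was 0.40. The arrays did not overlap for 20.7% of all genes. Dbp differed by -0.07 with all arrays (adjusted p = 0.965). Without N-control replicate 3, its N-control values of 8.87 and 8.52 lay above all 3 treated values, and the difference became -0.95 (standard error 0.19, adjusted p = 0.0455). Dbp then fell past the threshold beside Nr1d1 at -0.97 (adjusted p = 0.0344), Cry1 rose by 0.94 (adjusted p = 0.0108), and 2.51% of all genes passed. That array was set aside for its clock gene values, Dbp among them. Both the larger difference of Dbp and its smaller standard error follow from that choice, so its call is no independent result. Dbp passed in 1 of the 9 fits that each left out 1 array. Arntl turned from -0.08 to 0.59 (adjusted p = 0.111) and Per3 from 0.22 to -0.30 when the array was left out. Nr1d2 went from -0.37 to -0.59 (adjusted p = 0.164).

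Over the 3 groups, Cry1 had means of 5.91 ± 0.31 (SD, n = 3) in lean, 6.13 ± 0.03 in untreated obese and 6.71 ± 0.03 in treated obese mice. The first 2 of these neighbours overlapped, and the treated group lay above both. Nr1d1 had the order 8.40 ± 0.25 in OB-TUDCA, 9.27 ± 0.19 in N-control and 9.44 ± 0.25 in OB-control mice, with the lean and obese control groups overlapping. Nr1d2 was 8.31 ± 0.29 in OB-TUDCA mice, below the control groups in mean but overlapping both. Dbp was 7.75 ± 0.22 in OB-TUDCA, 7.82 ± 1.52 in N-control and 8.46 ± 0.27 in OB-control mice, and Per3 was 5.77 ± 0.93 in N-control, 5.99 ± 0.27 in OB-TUDCA and 6.33 ± 0.49 in OB-control mice. The lean groups of both were widened by replicate 3. Per1 ranged from 6.63 ± 0.33 in N-control over 6.97 ± 0.32 in OB-control to 7.04 ± 0.16 in OB-TUDCA mice, and Per2 from 5.72 ± 0.59 over 6.30 ± 0.25 to 6.45 ± 0.20. Clock went the other way, from 8.18 ± 0.50 in lean mice to 7.94 ± 0.23 and then 7.81 ± 0.11, but the lean mean was 7.89 without replicate 3, below that of OB-control mice. Arntl was 6.02 ± 1.16, 5.78 ± 0.13 and 5.94 ± 0.27. Of these neighbouring groups, none differed past the threshold except Nr1d1 between OB-TUDCA and N-control mice.

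The clock was also read array by array. For each array the mean deviation of Arntl and Clock from their means over the 9 arrays was taken. It was set against that of Nr1d1, Nr1d2, Dbp and the 3 Per genes, with Cry1 in neither arm. Genes of an arm did not all move together over the 8 arrays other than N-control replicate 3. Pearson r there was -0.02 between Arntl and Clock and -0.58 between Dbp and Per2. N-control replicate 3 had 1.11 for Arntl and Clock and -0.87 for the opposite arm. N-control replicates 1 and 2 had -0.37 and -0.27 for Arntl and Clock and 0.32 and 0.16 for the opposite arm. Part of that distance comes from the mean, which holds replicate 3. Against the mean of the other 8 arrays, N-control replicate 1 was at -0.23 and 0.21 and replicate 2 nearer 0, at -0.14 and 0.048. In OB-control replicates 1 and 2 the arms were at -0.25 and -0.12 against 0.30 and 0.43, as in the first lean pair, while replicate 3 was near the mean with 0.10 and 0.02. OB-TUDCA arrays were at -0.17, -0.11 and 0.08 for Arntl and Clock and at -0.02, -0.26 and -0.09 for the opposite arm. Against the mean of all 9 arrays, the arms differed by -0.55, -0.55 and 0.08 in OB-control mice. In OB-TUDCA mice they differed by -0.15, 0.15 and 0.16. Against the mean of the other 8 arrays the values were -0.30, -0.30 and 0.33 in OB-control and 0.094, 0.40 and 0.41 in OB-TUDCA mice. OB-control replicate 3 thus lay within the range of the treated arrays on either reference. With Cry1 in neither arm, replicate 3 had the highest difference between the arms within every group. Against the mean of all 9 arrays it reached 1.98 among lean, 0.08 among untreated and 0.16 among treated arrays, where treated replicate 2 was close at 0.15. With Cry1 in the arm of Arntl and Clock, treated replicate 2 was the highest of its group, at 0.34 against 0.30 for replicate 3. Arntl also rose from replicate 1 to 3 within every group. Among treated arrays, however, Clock was highest in replicate 1 (7.90) and Dbp lowest in replicate 2 (7.53). The cause of this order was not tested.

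**Figure D4:**
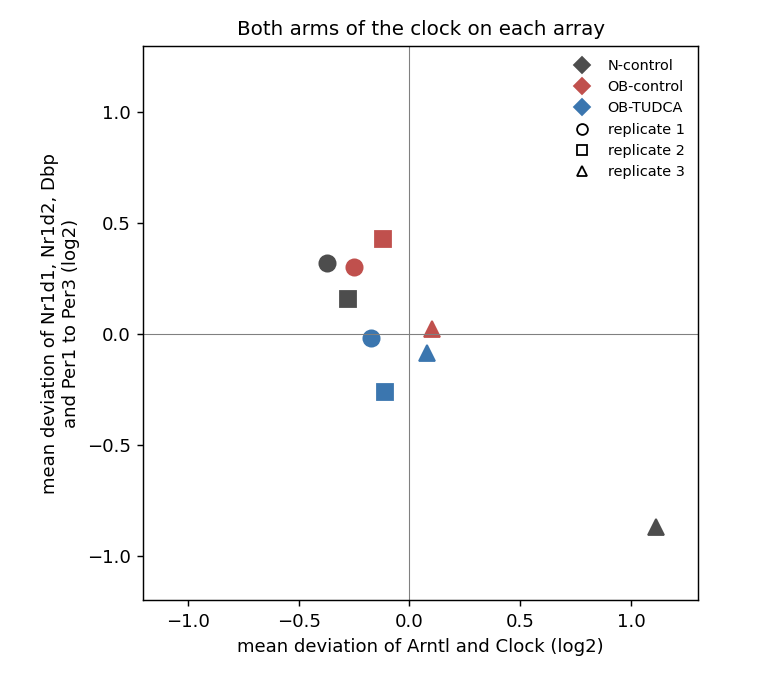
Mean deviation of Arntl and Clock (horizontal, log2) against that of Nr1d1, Nr1d2, Dbp and Per1 to Per3 (vertical, log2) on each of the 9 arrays, with colour for the group and symbol for the replicate number. N-control replicate 3 lies at 1.11 and -0.87, and the 3 OB-TUDCA arrays lie just below the horizontal line at 0, between -0.26 and -0.02.

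The difference between the arms was -0.34 ± 0.37 (SD, n = 3) in untreated and 0.05 ± 0.18 in treated ob/ob mice, and the obese groups overlapped. It was 0.29 ± 1.48 in N-control mice. Its value in OB-TUDCA mice depended on the measure, being -0.03 when each gene was scaled by its SD and 0.23 when Per1 and Per2 were left out. Against the mean of the 8 arrays other than N-control replicate 3 it was 0.30, where OB-control mice had -0.091. That change of reference moves every array alike and leaves the gap between the groups unchanged. With Cry1 added to the arm of Arntl and Clock the obese groups did not overlap, at -0.55 to -0.0026 in untreated and 0.046 to 0.34 in treated mice. Cry1 by itself did not overlap between these groups, so adding it brought that separation in. It also encodes a repressor of the ARNTL and CLOCK pair. The hour at which these mice were killed, their last meal and their group cannot be told apart here.

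Other clock genes were read from a list of 11, of which 10 were measured. None passed the threshold in any of the 3 comparisons, with 2 of 10 below 0.05 without adjustment in each. At that limit stood 12.1% of all genes between OB-control and N-control, 12% between the obese groups and 18.5% between OB-TUDCA and N-control mice. Their median difference with TUDCA in ob/ob mice was -0.06, where that of all genes was 0.01. In N-control replicate 3, 5 of the 10 lay below all other arrays and none above, where 25.1% of all genes lay outside on either side. These were Ciart, a repressor that follows the E-box rhythm, at 5.27 against 6.73 to 7.92, Bhlhe40 at 7.54 against 8.32 to 9.48, Bhlhe41 at 3.41 against 3.49 to 6.81, Tef at 7.22 against 7.75 to 8.46 and Cry2 at 6.60 against 6.95 to 7.44. Bhlhe40 and Bhlhe41 encode repressors that bind E-boxes, and Tef is a D-box factor like Dbp. All 5 lay on the same side as Dbp and the Per genes in that array. For Bhlhe41 the gap was small, and both 3.41 and 3.49 lie below the median signal of all genes, 4.95.

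**Figure D5:**
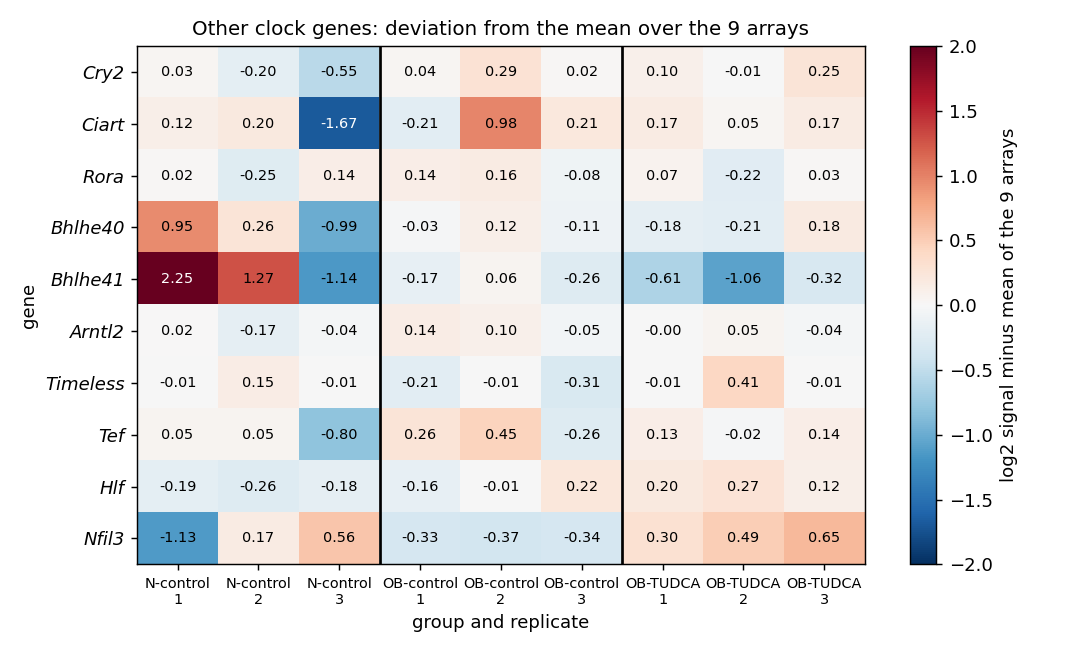
Log2 signal of 10 other clock genes on each array minus the mean of that gene over the 9 arrays, with the colour scale ending at 2.0. Ciart reads -1.67, Bhlhe40 -0.99 and Nfil3 0.56 in N-control replicate 3. Bhlhe41 reads 2.25 and 1.27 in the other lean arrays, and Nfil3 reads 0.30 to 0.65 in OB-TUDCA mice.

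The largest differences on this list were those of Bhlhe41, Nfil3 and Ciart. Bhlhe41 was 6.81, 5.82 and 3.41 on the lean arrays, 4.39, 4.61 and 4.29 in OB-control mice and 3.94, 3.49 and 4.23 after TUDCA. The arrays of the obese groups did not overlap with each other, while the lean arrays spanned both. Every obese value was low, below the median signal of all genes at 4.95. Without N-control replicate 3 Bhlhe41 fell below the lean mice in both obese groups, with differences of -1.89 in OB-control (adjusted p = 0.0361) and -2.43 in OB-TUDCA mice (adjusted p = 0.0108). That fit leaves out the lean array, at 3.41, that lay below the obese values. It keeps N-control replicates 1 and 2, and replicate 2 carried pancreatic RNA. Nfil3, a repressor that competes with Dbp for D-boxes, was 6.68, 6.65 and 6.68 in OB-control and 7.32, 7.51 and 7.66 in OB-TUDCA mice. The obese groups did not overlap, but their difference of 0.83 (standard error 0.35) had an adjusted p of 0.377. Lean arrays, at 5.89, 7.18 and 7.58, overlapped both obese groups. Ciart differed by 0.78 between OB-control and N-control mice (standard error 0.46, adjusted p = 0.561), and by 0.17 without N-control replicate 3.

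Of 17 listed regulators of clock proteins, such as casein kinases and ubiquitin ligases, 14 were measured. None passed between the obese groups or between OB-control and N-control mice, where 0.301% and 0.948% of all genes did, and 1 passed between OB-TUDCA and N-control mice, where 3.24% did. Prkaa1, a catalytic subunit of the kinase AMPK, was 7.45, 7.44 and 7.43 in N-control and 7.10, 6.93 and 7.12 in OB-TUDCA mice. It fell by 0.39 (standard error 0.078, adjusted p = 0.0292), with the groups apart, and was no longer called without N-control replicate 3 (adjusted p = 0.0644). The median difference of the 14 in this comparison was -0.07, against 0.04 over all genes. In N-control replicate 3, 1 of the 14 regulators was above all other arrays and none below, against the same 25.1% of all genes.

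Liver genes known to follow the clock were read from a list of 20. Of these 18 were measured, and with TUDCA 1 rose and none fell in ob/ob mice, where 0.301% of all genes passed. That gene was Lpin1, which encodes a phosphatidate phosphatase and coactivator of fasting genes, at 8.81, 8.65 and 9.33 in OB-control and 10.61, 10.82 and 10.79 in OB-TUDCA mice. Its rise of 1.81 (adjusted p = 0.0192) stayed past the threshold without N-control replicate 3 (adjusted p = 0.0359). Against N-control mice, 3 of the 18 rose and 3 fell in OB-TUDCA mice, where 3.24% of all genes passed, and 1 rose and 1 fell in OB-control mice, where 0.948% did. Cyp2b10, a drug-metabolizing cytochrome, rose by 2.05 in OB-control (adjusted p = 0.00596) and by 1.74 in OB-TUDCA mice (adjusted p = 0.00782), while Pnp, a purine phosphorylase, fell by 0.60 (adjusted p = 0.034) and 0.58 (adjusted p = 0.019). The calls of Pnp were lost without N-control replicate 3 (adjusted p = 0.0838 and 0.0501). Alas1, the first enzyme of heme synthesis, rose by 0.76 in OB-TUDCA against N-control mice (adjusted p = 0.016), and Lpin1 rose by 1.34 (adjusted p = 0.00876).

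Elovl3, a fatty acid elongase with a daily rhythm in liver, was 8.29, 9.45 and 10.93 on the lean arrays, 6.74, 5.85 and 7.72 in OB-control mice and 5.78, 5.71 and 5.32 after TUDCA. The lean arrays were above both obese groups, and the difference of OB-TUDCA from N-control mice was -3.96 (adjusted p = 0.0124). Cyp7a1, the rate-limiting enzyme of bile acid synthesis, fell by 2.85 in the same comparison (adjusted p = 0.0297), but missed the threshold without N-control replicate 3 (adjusted p = 0.0592). The median difference of the 18 genes in that comparison was 0.19, against 0.04 over all genes. In N-control replicate 3, 5 of the 18 outputs lay below all others, with Usp2 at 5.33 against 7.02 to 7.87 and Wee1 at 5.78 against 7.45 to 8.15, and 3 lay above, among them Elovl3, against 25.1% of all genes outside. Usp2 encodes a ubiquitin protease and Wee1 a kinase of the cell cycle, and both are known targets of the clock.

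The genes most like Arntl and Dbp were ranked by Pearson r over the 9 arrays among 9968 genes above the median signal. All points share the 9 arrays, and N-control replicate 3 lies far from the others for both genes, so r is also given over the other 8. The highest r with Arntl were those of Sphk2 at 0.94 (0.90 over 8 arrays), Itga5 at 0.94 (0.78), Poc1b at 0.93 (0.70), Fas at 0.92 (0.79) and Senp1 at 0.91 (0.81). The lowest were those of Fbxo7 at -0.94 (-0.69), Dbp at -0.94 (-0.77) and Lmx1b at -0.93 (-0.69). Dbp was thus among the 3 genes most opposite to Arntl, and it remained negative over 8 arrays. For Dbp the highest r were those of Per3 at 0.92 (0.73), Syne3 at 0.92 (0.80), Fbxo7 at 0.89 (0.50), Olfm1 at 0.89 (0.53) and Zfp251 at 0.88 (0.77). The lowest were those of Arntl, Sphk2 at -0.94 (-0.87) and Mir122 at -0.94 (-0.78).

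Among pairs of clock genes, several values changed once N-control replicate 3 was set aside. Arntl and Clock had r of 0.80 over 9 arrays and -0.02 over 8, and Dbp and Per2 had 0.61 and -0.58. The positive values of both pairs were not seen over the 8 other arrays. Arntl went from -0.65 to 0.62 with Per2 and from -0.49 to 0.455 with Per1, so these negative values were not seen there either. Per2 and Nr1d1, of the same arm, had -0.32 over 9 arrays and -0.64 over 8. The receptors and Dbp moved closer together over the 8 arrays, with r between Dbp and Nr1d2 of 0.94, against 0.77 over 9, and between Dbp and Nr1d1 of 0.84, against 0.43. Cry1 ran against them, at -0.90 with Dbp over 8 arrays, and at -0.83 with Nr1d1 over 9 arrays and -0.83 over 8. These 8 arrays include the treated group, in which Nr1d1 was low and Cry1 high, and the values describe these arrays only.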

How the data were processed

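Affymetrix Mouse Gene 1.0 ST arrays measured liver RNA of 9 mice, 3 from each of the 3 groups. The authors processed the scans with RMA in Affymetrix Expression Console, version not given in the sources used here, and deposited log2 signals. RMA corrects background, makes the array distributions alike and summarizes probes, which can shrink differences between arrays. Arrays have no read depth, and their number limits the precision. The 35556 probe sets comprise 21789 with 1 symbol, 1621 with several and 12146 unnamed here, and only the first were used, averaged per symbol to 19938 genes.

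Groups were compared two-sided with limma 3.58.1 in R 4.3.3, in a fit of all 9 arrays with a mean for each group. The degrees of freedom were 6 residual and 3.33 prior. P-values were adjusted by Benjamini-Hochberg across the 19938 genes, and the threshold was 0.05. The fit was tested on simulated data. The methods' SAM was rebuilt with 20 relabellings and a delta of 0.1, taking s0 1.5 and fold 1.5 for a fall and s0 1.2 and fold 2.3 for a rise. Python 3.11.15, pandas 2.3.3 and matplotlib 3.10.9 drew the figures. Members and lists were chosen with earlier results of these data known. Named genes were all members, up to 6 genes past the threshold per other list (or, with none, the 3 with the largest difference), and the 5 highest and 3 lowest r with Arntl and Dbp. Genes of these lists outside all other arrays in N-control replicate 3 were named after their values were seen. Alternatives covered filtering, normalization, variance prior, array weights, arrays in the fit, probe sets, test, replicate number and leaving out each array. Reading the arms and correlations without N-control replicate 3 was added after seeing the data.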

Additional observations from a re-analysis of the deposited data

How the results depend on the processing

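For OB-TUDCA against OB-control mice, the count of clock genes past the threshold was 1 with all arrays. It was 0 when the fit held only those groups and 0 by a t-test after Benjamini-Hochberg adjustment. It was 3 by that t-test unadjusted, 2 by the SAM and fold limits as rebuilt, and 0 to 0 when each array was left out in turn. Against N-control mice the count of 2 became 0 with only the groups compared and 0 by the adjusted t-test, and ranged from 0 to 3 when each array was left out. The count of 0 between OB-control and N-control mice held in every alternative, and no clock gene was below 0.05 by the unadjusted t-test. The sign turned with array weights for Arntl (0.0051 between OB-control and N-control, 0.16 between OB-TUDCA and N-control mice) and Per3 (-0.0076 between OB-TUDCA and N-control mice), and with a further quantile normalization for Nr1d2 (0.021 between OB-control and N-control mice). With arrays left out in turn, differences between OB-control and N-control mice spanned 0 for Arntl (-0.63 to 0.42), Clock (-0.39 to 0.047), Nr1d2 (-0.23 to 0.16) and Dbp (-0.23 to 1.16), between OB-TUDCA and OB-control mice for Per1 (-0.082 to 0.24), and between OB-TUDCA and N-control mice for Arntl (-0.46 to 0.59), Per3 (-0.30 to 0.60) and Dbp (-0.95 to 0.45). The cause was not tested. Calls over all genes were 60, 646 and 189 in the 3 comparisons. They fell to 0, 345 and 65 with only the groups compared, were 131, 783 and 234 without the third of genes of lowest signal, 97, 733 and 216 after a further quantile normalization, 65, 848 and 358 with array weights, and 0, 0 and 1 by the adjusted t-test. The labels give no shared origin to a replicate number. With Cry1 in neither arm, replicate 3 had the highest difference between the clock arms within every group. Deviations correlated over 0.1 in 4 of 9 same-numbered pairs (-0.08 to 0.21), all 3 pairs of replicate 3 among them, and in 1 of 18 other pairs (-0.30 to 0.23). Since not every same-numbered pair did, the samples were not treated as paired. With it as a replicate block the counts of clock genes were unchanged at 1, 2 and 0, and 60, 871 and 189 genes passed in all.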
